A study of Mus musculus with 35 samples.

Results

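Cultured cardiac fibroblasts (CFs) were set against whole mouse heart, gene by gene, by joining the RNA-Seq tables of the 2 materials on the gene identifier and expressing each value as a count scaled to the library total (CPM). The members were the 3 untreated CF libraries given the control siRNA (si-NC, called Scrambled here) and the 4 hearts of IAMP heterozygous mice (Het), which made 7 of the 35 libraries of the series. The CFs were obtained by enzymatic digestion from adult mice of 8 weeks, were plated on collagen-coated dishes and grown in high glucose medium with fetal bovine serum, and were passaged before use. The hearts came from C57BL/6 mice of 8 weeks under basal conditions that carried 1 frameshifted copy of the IAMP gene, whereas the labels give no strain and no IAMP allele for the mice that gave the CFs. The series also holds CFs with 2 IAMP siRNAs, CFs given IL-17 or TGF-β, and 4 hearts without functional IAMP (KO), and it was made to study IAMP, a micropeptide encoded by 4930523C07Rik. Nothing in the labels says whether the 3 CF libraries came from separate mice or separate dishes, so that p values measure only the spread between these libraries.

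The ventricular wall is built mostly of cardiomyocytes, which fill their volume with sarcomeres and mitochondria and burn mainly fatty acids. CFs lie between them, deposit and remodel the collagen-rich matrix, and divide little in the healthy adult heart. On culture plastic with serum they are known to enter the cell cycle and to take on features of myofibroblasts, cells with contractile actin bundles and high matrix output. A whole heart also contains fibroblasts, endothelial cells, pericytes, immune cells and blood, so that a difference between the 2 materials reflects cell makeup, culture and amount of RNA per cell together, and in bulk samples fewer cells of a type and less RNA per cell cannot be told apart.

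The CF libraries held 114763924 to 119232309 estimated counts and the hearts 23604561 to 23839878 counts. In genes above 0 in a single library of their group, the commonest value was 6 in the CF table and 1 in the heart table. It stood in 18.9% of 4416 such genes in CFs, where 10.3% had 1, and in 52.5% of 3306 in hearts. From this a CF value was read as up to about 6 units per read pair and a heart value as 1 unit. The study's methods do not state this, and in CFs the reading rests on a minority of these genes. Material and quantification cannot be told apart, and only differences of 8-fold or more were read. A gene was called where the adjusted p was at most 0.05 (edgeR quasi-likelihood test, Benjamini-Hochberg), the difference was at least 8-fold and the CPM values of the 3 CF libraries and the 4 hearts did not overlap. Mitochondrially encoded genes took 2.52% to 2.63% of the counts in CFs and 24.0% to 26.7% in hearts. Pseudogenes took 0.958% to 0.974% in CFs and 12.7% to 13.9% in hearts, and 3 of the 10 most abundant rows in hearts (Gm29216, Gm13340 and Gm28437) were pseudogenes. All 7 libraries expressed Y-linked genes and had Xist at 0.274 CPM or less on average in either group.

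Of 13927 protein-coding genes tested, 2111 were called higher in CFs, which was 15.2%, and 1272 were called higher in hearts, which was 9.13%. Over all 17852 genes tested, 13.3% were called higher in CFs and 19.1% higher in hearts, and 1851 of the 3406 calls in hearts were pseudogenes. The median log2 difference of protein-coding genes, CFs minus hearts, was 1.09. With TMM scaling, which sets library sizes from a trimmed mean of gene ratios, it was 0.43, and 1344 protein-coding genes were then called higher in CFs and 1678 higher in hearts. The share of protein-coding calls that were higher in CFs was thus 62.4% on CPM and 44.5% with TMM. List medians below are log2 differences, CFs minus hearts, and are to be read against the 1.09. A group was taken as at the floor where every library had at most 18 estimated counts (CFs, about 3 read pairs on that reading) or 3 counts (hearts), and folds against such a group are lower bounds. In 81 of the protein-coding calls in CFs and 168 of those in hearts, the lower group was at the floor and the bound was under 8-fold.

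**Figure D1:**
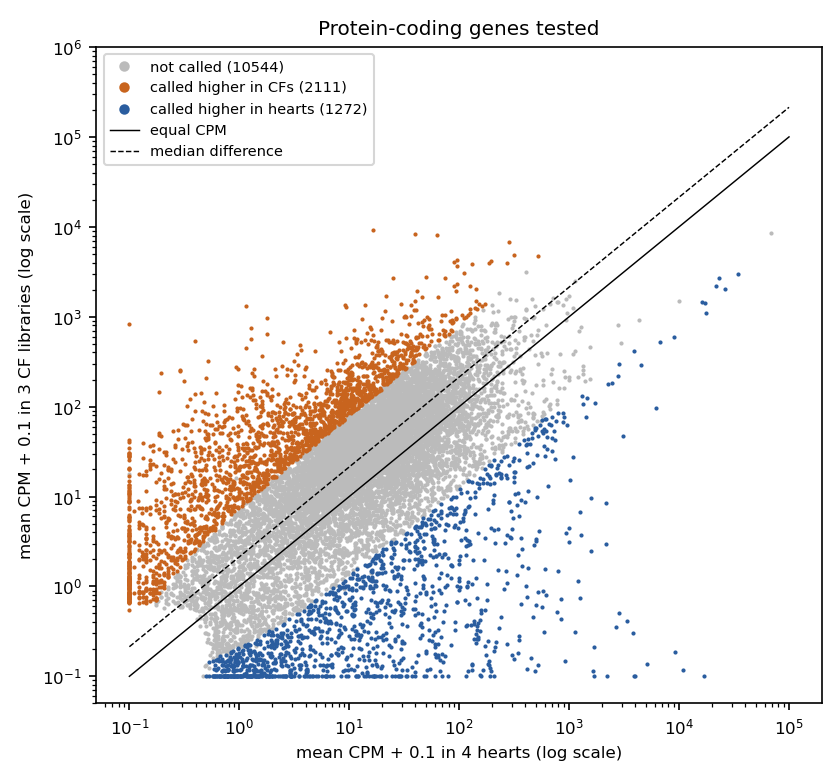
Mean CPM of each protein-coding gene tested in the 4 hearts (x axis) and the 3 CF libraries (y axis), both as CPM + 0.1 on log scales; the solid line marks equal CPM and the dashed line the median difference. The 2111 genes called higher in CFs lie above the cloud and the 1272 called higher in hearts below it, and most genes lie above the line of equal CPM.

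Gene length moved with the difference. Among protein-coding genes with at least 5 CPM in both materials, the median log2 difference was -0.81 in the 109 genes of 600 to under 1000 exonic bases and 1.52 in the 1803 genes of 8000 bases or more. A shorter class of under 600 bases held only 19 genes and had a median of -0.98. Long genes thus read higher in CFs and short genes higher in hearts, and the part of the quantification in this trend was not tested. Where it bears on a result, a value centred on the running median of genes of like length is given beside the CPM value. After centring, 1112 of the 13927 protein-coding genes were called higher in CFs and 1839 higher in hearts. Both TMM scaling and centring thus moved calls from CFs to hearts over all genes, and list counts under them are to be read against this. Of the called genes named below, Acta2, Cnn2, Col4a1, Eno1, Eno2, Fosl2, Serpinh1, Slc16a3 and Ywhaz fell below 8-fold with TMM scaling and also after centring on genes of like length. S100b fell below it with TMM scaling, and Bgn, Egr2, Gusb, Pdgfra, Ppia, Prrx1, Sparc and mt-Co3 after centring.

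**Figure D2:**
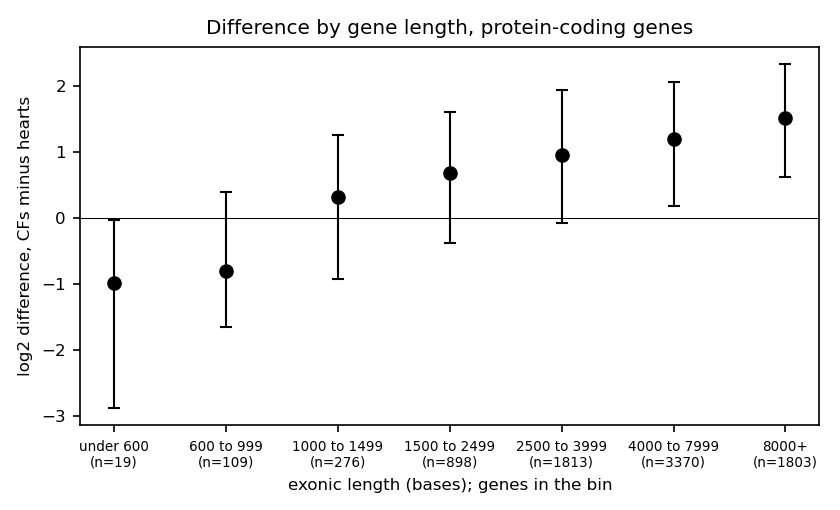
Median log2 difference in CPM, CFs minus hearts, of protein-coding genes with at least 5 CPM in both materials, by exonic length in bases (x axis); bars span the quartiles of the genes in a bin. The medians go from -0.98 in the shortest bin to 1.52 in the longest.

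The IAMP gene 4930523C07Rik (chr1:160044382-160080208, plus strand, GRCm38) was detected in both materials at close levels. It read 22.7, 23.7 and 26.9 CPM in the 3 CF libraries and 16.1, 15.9, 18.6 and 17.9 CPM in the 4 hearts. The groups did not overlap, with 24.4 ± 2.21 CPM in CFs (SD, n = 3) and 17.1 ± 1.33 in hearts (SD, n = 4). The log2 difference was 0.51 ± 0.09 (SE, adjusted p = 0.000314 by edgeR), which is below the 8-fold rule and below the median of protein-coding genes, and its sign turned with TMM scaling (-0.15), with RLE scaling (-0.32), with totals over protein-coding genes alone (-0.15) and after centring on genes of like length (-1.09).

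In hearts the 10 genes with the largest fitted differences were genes of the contractile apparatus and of its energy supply. Of these, 9 were at the floor in CFs, where the fitted value depends on the prior count, so that their order and the choice of these 10 carry no weight. Myh6, the adult α-myosin heavy chain, read 18000, 16210, 16080 and 17130 CPM in the 4 hearts and 0 in all 3 CF libraries, which made it at least 107500-fold higher in hearts (against the floor of a CF library). Myh7, the β-myosin heavy chain, was likewise at 0 in all CF libraries and at 3974 ± 198 CPM in hearts (SD, n = 4). These 2 genes lie side by side and are much alike, so that reads may have been split between them in hearts. Actc1, cardiac α-actin, was at 9169 ± 216 CPM in hearts and at 0.204, 0.0523 and 0 CPM in the CF libraries. The other genes of the 10 were Myl2 and Myl3 (ventricular myosin light chains), Ckm and Ckmt2 (cytosolic and mitochondrial creatine kinase), Mb (myoglobin), Smpx (a small muscle protein) and Actn2 (the Z-disc α-actinin). Each had at least 198.6 CPM in every heart and at most 0.109 CPM in any CF library. Their lower bounds ran down to 1318-fold in Smpx, which is less than the 18530-fold of Pln, a gene outside the 10.

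In CFs the 10 genes with the largest fitted differences were secreted, matrix, receptor and growth-associated genes. Cemip, which takes part in hyaluronan breakdown, read 808, 862 and 797 CPM in the CF libraries and 0 in all 4 hearts, at least 6469-fold higher (against the floor of a heart). Tnc, the matrix glycoprotein tenascin C, was at 1321 ± 71.0 CPM in CFs (SD, n = 3) and at 0.720, 1.18, 0.881 and 1.43 CPM in hearts. Col11a1, a fibrillar collagen best known from cartilage, was 1303-fold higher, and Ereg, an EGF receptor ligand, 1337-fold higher. Hmga2, a chromatin protein of growing and embryonic cells, was at 191 ± 6.80 CPM in CFs and 0.211 ± 0.0689 in hearts. The remaining 5 were the receptors Gpr39 and Gpr176, the protease inhibitor Serpinb9b, the BMP family ligand Gdf6 and the chloride channel regulator Clca3a1, with 137 to 767 CPM in every CF library and at most 1.30 CPM in any heart.

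**Figure D3:**
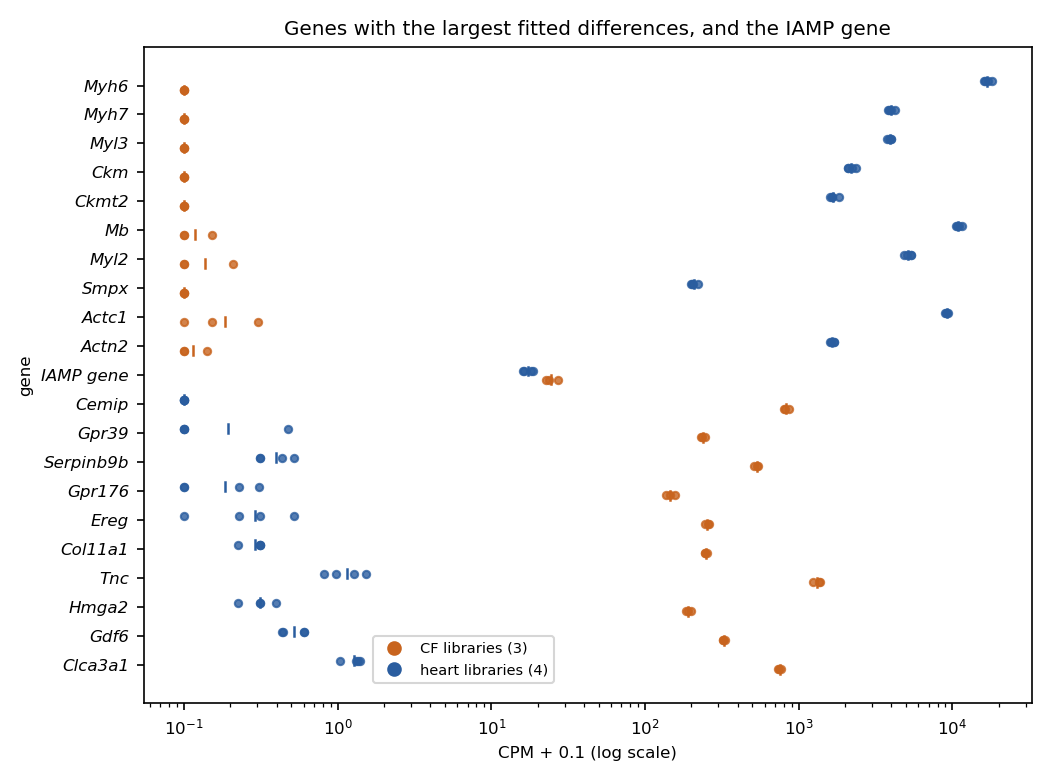
CPM + 0.1 (log scale) in each of the 3 CF libraries and 4 hearts, for the 10 genes with the largest fitted difference in each direction and the IAMP gene; points are libraries and ticks are group means. Points at 0.1 are libraries with a value of 0, and only the IAMP gene has the 2 groups close to each other.

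The most abundant transcripts differed in kind. Among the 10 most abundant in CFs were Thbs1 (thrombospondin 1), mt-Co1, Fn1 (fibronectin), Eef1a1 (a translation elongation factor), Sparc, Col4a1, the cytoplasmic actins Actg1 and Actb, and Fbln2 (fibulin 2), and the 10 together held 6.23% to 6.33% of the counts. In hearts the 10 most abundant rows were 7 mitochondrially encoded genes and the 3 pseudogenes named above, with 26.2% to 29.0% of the counts. Thbs1 read 9456, 9526 and 8652 CPM in CFs and 7.41, 10.4, 16.5 and 31.4 CPM in hearts, a difference of 9.13 ± 0.55 on the log2 scale (SE, adjusted p = 2.33e-06 by edgeR). The hearts spread over more than 4-fold in this gene, and no heart came within 100-fold of a CF library. Eef1a1 (6726 ± 290 CPM in CFs, 281 ± 29.8 in hearts), Actb and Actg1 have many near-identical pseudogenes, and since pseudogene rows took far more of the heart counts, their differences are uncertain.

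Most calls among the matrix lists were higher in CFs. Of 10 fibrillar collagen genes tested, 7 were called higher in CFs and none in hearts, with a median log2 difference of 4.86. With TMM scaling and after centring on length, 7 were called higher in CFs and 1 higher in hearts. Col1a1 and Col1a2, the 2 chains of type I collagen, were at 3893 ± 63.4 and 3622 ± 83.3 CPM in CFs and at 130 ± 26.2 and 95.1 ± 18.5 CPM in hearts. Col3a1, the chain of type III collagen, was 27.4-fold higher and Col5a2, which joins type I fibrils, 110-fold higher. Of 18 other collagens tested (median 2.63), 7 were called higher in CFs (5 with TMM, 5 after centring). Among them were Col8a1 (150-fold) and Col12a1 (478-fold), and Col4a1 of the basement membrane was just inside the rule at 8.98-fold. Col4a2, its partner chain, was at 7.82-fold and not called. On CPM, Col6a6 alone among the collagens was called higher in hearts, at 4.55 ± 0.690 CPM against 0.219 ± 0.242 in CFs.

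The enzymes that mature collagen were high in CFs with their substrates. Of 20 genes tested, 13 were called higher in CFs and none in hearts, with a median of 3.45, and this count was 7 with TMM scaling and 7 after centring on length. Lox, which cross-links collagen and elastin, was at 1296 ± 56.8 CPM in CFs and 9.22 ± 2.34 in hearts. Loxl2 was 49.2-fold higher, Plod2 (a lysyl hydroxylase) 26.0-fold, and Serpinh1 (the collagen chaperone HSP47) 10.5-fold. Of 31 matrix glycoproteins (median 3.95), 20 were called higher in CFs and none in hearts (17 with TMM, 12 after centring). Fn1 was at 8216 ± 369 CPM in CFs and 39.5 ± 8.29 in hearts, Fbln2 was 45.5-fold higher, and Ccn2, a TGF-β-responsive matricellular protein, 36.7-fold.

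Small leucine-rich proteoglycans, which coat collagen fibrils, had a median of 0.96. Of 10 tested, Bgn (biglycan, 3973 ± 200 CPM in CFs, 269 ± 61.5 in hearts) was the 1 called higher in CFs, and Chad (chondroadherin, 0.168 ± 0.0793 and 6.24 ± 4.56 CPM) the 1 called higher in hearts. The count in CFs was 2 without heart d and 0 after centring on length, and the count in hearts was 2 with TMM and 2 after centring. Dcn (decorin) read 596 ± 48.0 CPM in CFs and 389 ± 81.2 in hearts, a log2 difference of 0.62 that was -0.042 with TMM scaling. The ratio of Col1a1 to Dcn values, which does not depend on library totals, was 5.94 to 7.18 in the CF libraries and 0.309 to 0.350 in the hearts, without overlap.

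Matrix proteases and their inhibitors were mostly higher in CFs, with a median of 3.81 and 14 of 18 called (10 with TMM, 8 after centring). Mmp14, a membrane-bound collagenase, was 40.8-fold higher. The tissue inhibitors of metalloproteinases split. Timp1 was 139-fold and Timp2 17.6-fold higher in CFs, Timp3 read 3.49-fold higher and was not called, and Timp4 was called higher in hearts, with 57.5 ± 4.43 CPM against 0.189 ± 0.0635 in CFs. Of 14 cytokine and chemokine genes tested (median 4.01), 7 were called higher in CFs and 1, Ccl11, in hearts (0.632 ± 0.159 CPM, and 0 in all CF libraries, a bound of 4.03-fold). Csf1, the macrophage growth factor, was at 2732 ± 87.0 CPM in CFs and 50.1 ± 9.18 in hearts, and Ccl2, which attracts monocytes, at 218 ± 14.2 and 1.25 ± 0.458 CPM. Il6, named here after its values were seen because the study follows it, was at 20.2 ± 0.642 CPM in untreated CFs and 0 in all 4 hearts.

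Cell cycle genes were higher in CFs. Of 33 cell cycle genes tested, 31 were called higher in CFs and none in hearts, with a median log2 difference of 6.08, and 29 were called with TMM scaling and 29 after centring on length. Mki67, the proliferation marker Ki-67, was at 286 ± 14.9 CPM in CFs and 2.32 ± 0.906 in hearts. Top2a, a topoisomerase of dividing cells, was 206-fold and Tpx2, a spindle protein, 140-fold higher, and Ccnd1, cyclin D1, was at 1173 ± 17.7 and 38.6 ± 3.12 CPM. The calls higher in CFs included the cell cycle inhibitor genes Cdkn2a and Cdkn2b, so that the list is not one of proliferation genes alone. The 2 members not called were Cenpa and Cdkn1a. Cdkn1a, the cell cycle inhibitor p21, read 397 ± 4.80 CPM in CFs and 210 ± 45.0 in hearts.

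Cytoplasmic actomyosin genes, the parts of stress fibres, were higher in CFs in 17 of 27 (11 with TMM, 9 after centring) and in hearts in none, with a median of 3.33. Myh9, non-muscle myosin heavy chain, was 24.6-fold higher, Tpm4 25.9-fold and Cald1, caldesmon, 37.4-fold. Acta2, the smooth muscle actin used to mark myofibroblasts and named here after its values were seen, was just inside the rule at 1089 ± 19.3 CPM in CFs and 125 ± 27.9 in hearts. Hearts also hold arterial smooth muscle, which expresses this gene.

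Sarcomere and Z-disc genes made the opposite group, with 32 of 35 called higher in hearts, none in CFs, and a median log2 difference of -10.95 (-9.51 with the 12 genes at or under the floor in CFs set at their bounds). The group gave 32 calls with TMM and 33 after centring. Tnnt2, cardiac troponin T, was higher in hearts (6227 ± 484 CPM) but was plainly detected in all 3 CF libraries, at 97.2 ± 4.39 CPM, while the summed level of the 11 cardiomyocyte markers in CFs was 95.1 to 103 CPM. Nearly all of that sum was thus Tnnt2, and Myh6, Ckm and Myl3 were at 0 in every CF library. Tpm1, which is also made by non-muscle cells, was at 526 ± 20.2 CPM in CFs and 6762 ± 325 in hearts. The 3 members not called were Nexn, Pdlim5 and Ankrd1, and Ankrd1, a stress-induced ankyrin repeat protein, read 1173 ± 26.5 CPM in CFs against 405 ± 65.6 in hearts.

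Of 40 genes of calcium handling and ion channels, 28 were called higher in hearts and none in CFs, with a median of -4.37. Pln, phospholamban, which restrains the SERCA pump, was at 3820 ± 127 CPM in hearts and 0.206 ± 0.1097 in CFs. Ryr2, the calcium release channel of the sarcoplasmic reticulum, was 1321-fold higher in hearts. Atp2a2, the SERCA pump itself, has a housekeeping isoform and was at 588 ± 7.11 CPM in CFs and 8987 ± 303 in hearts. Gja1, connexin 43, named after its values were seen, did not separate at this rule, with 114 ± 2.78 CPM in CFs and 121 ± 17.3 in hearts.

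Genes of the respiratory chain that were called were all higher in hearts, but their number moved with the scaling and the length trend, and in the nuclear genes most members were not called. Of 82 nuclear genes of the respiratory chain, 29 were called higher in hearts and none in CFs, with a median of -2.72, and 60 were called with TMM and 43 after centring. Atp5b, a catalytic subunit of ATP synthase, was at 4286 ± 134 CPM in hearts and 930 ± 21.1 in CFs, which is 4.61-fold and not called, and Uqcrc1 of complex III was 9.89-fold higher and called. Of 13 mitochondrially encoded genes, 10 were called higher in hearts (12 with TMM, 5 after centring), with a median of -3.53. mt-Co1 read 68350 ± 2888 CPM in hearts and 8619 ± 247 in CFs, 7.93-fold, and lay just outside the rule. Copies of mitochondrial sequence in the nuclear genome were counted as pseudogenes, and mt-Co3 (17240 ± 1438 CPM in hearts) and Gm28437 (17260 ± 1444) had near-equal values, so that the split of reads between them is uncertain. Gm13340, a pseudogene row with the exonic length of mt-Co1 (1545 bases), read 21550 ± 864 CPM in hearts and 50.8 ± 4.44 in CFs. Whether mt-Co1 reads were counted there was not tested, so that its 7.93-fold is uncertain.

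Of 36 genes of fatty acid uptake and oxidation, 23 were called higher in hearts and none in CFs (30 with TMM, 33 after centring), with a median of -3.40. Fabp3, the muscle fatty acid-binding protein, was 254-fold and the fatty acid transporter Cd36 248-fold higher in hearts. Lpl, lipoprotein lipase, was at 2831 ± 185 CPM in hearts and 300 ± 7.22 in CFs. Glycolysis did not move as a block, with 5 of 27 genes called higher in hearts, 3 in CFs and a median of 0.20. The 5 were Slc2a4, Pfkm, Pgam2, Eno3 and Ldhb, which are the muscle or heart forms of their steps, and the 3 were Eno1, Eno2 and the lactate exporter Slc16a3. With TMM 6 were called higher in hearts, and after centring 7 were, and none was higher in CFs after centring.

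Such pairs of forms were compared within each library as the share of the heart form in the sum of both forms per kb of exon, a quantity that does not depend on library totals. It does depend on how reads were split between genes and pseudogenes. Pseudogenes took 12.7% to 13.9% of the heart counts and 0.958% to 0.974% of the CF counts. Whether reads of either form were counted there was not tested. In 26 of 28 pairs the share was higher in every heart than in every CF library. In 23 the mean share was under 50% in CFs and above 50% in hearts, narrowly so for Slc25a4 (49.0% in CFs). The pairs were chosen as heart forms with earlier results of these data known, and no other gene pairs were compared. Differences were common, since 16324 of the 17852 genes tested had an adjusted p of at most 0.05 (edgeR). An exact two-sided permutation test of 3 against 4 libraries cannot go below p = 0.0571, so that no test is given. In the cytochrome c oxidase subunit 6A pair, Cox6a2 made up 94.3% ± 0.475 in hearts and 0.107% ± 0.146 in CFs. Cox8b made up 84.4% ± 0.765 and 0.0299% ± 0.0518, and Cox7a1 78.4% ± 1.58 and 0.730% ± 0.282. Ldhb made up 82.0% ± 0.441 of lactate dehydrogenase in hearts and 3.17% ± 0.269 in CFs, and Eno3 97.4% ± 0.131 and 1.48% ± 0.0887 of enolase. Slc2a4, the insulin-responsive glucose transporter, made up 95.5% ± 0.324 and 0.717% ± 0.206 beside Slc2a1. Cpt1b, the muscle form of the enzyme that admits fatty acids to mitochondria, made up 97.6% ± 0.383 and 0.847% ± 0.604 beside Cpt1a.

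On this measure some pairs were mixed in CFs. Slc25a4, the adenine nucleotide translocase of muscle, made up 95.1% ± 0.408 in hearts and 49.0% ± 0.744 in CFs, and Pfkm 97.7% ± 0.284 and 51.2% ± 2.44. Fabp3 made up 34.1% ± 2.36 in CFs beside Fabp5. The shares of Pfkm and Fabp3 lean on exonic length, which was 3340 bases in Pfkm and 13401 in Pfkp. It was 823 bases in Fabp3 and 3567 in Fabp5, and values not divided by length would give both heart forms lower shares. Atp2a2 had the larger share in both materials, at 99.9% ± 0.00583 in hearts and 87.8% ± 0.232 in CFs. Its partner here, Atp2b1, is a calcium pump of the plasma membrane and no form of SERCA. The 2 pairs that overlapped were Cox4i1 with Cox4i2, in which Cox4i1 made up 98.9% ± 0.109 in hearts and 99.1% ± 0.187 in CFs, and Ampd1 with Ampd2, in which Ampd1 made up 0.826% ± 1.04 and 0.192% ± 0.126. Both members of a pair were called in opposite directions in 9 pairs, such as Ckm and Ckb, Actc1 and Actb, Actn2 and Actn1, Myh6 and Myh9, and Des and Vim.

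**Figure D4:**
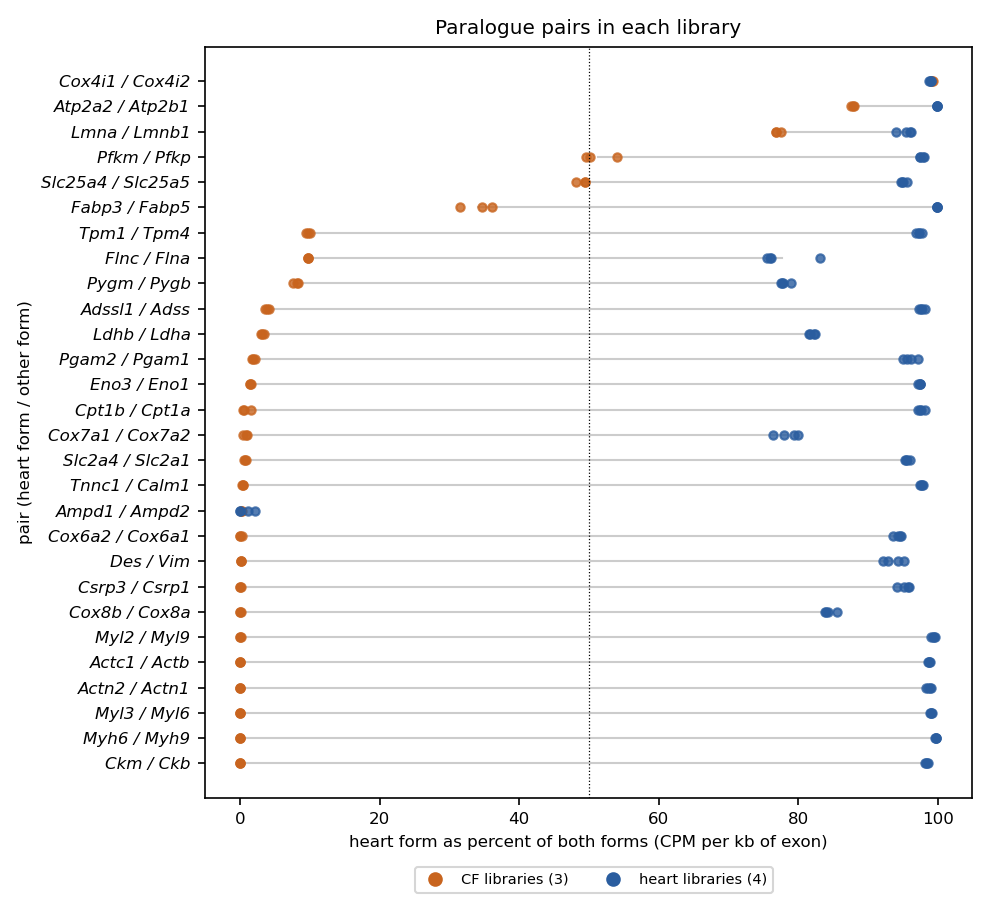
Share of the heart form in the sum of both forms of 28 pairs (CPM per kb of exonic length, percent) in each of the 3 CF libraries and 4 hearts, with a grey line between the group means and a dotted line at 50%. In 26 pairs the hearts lie to the right of all CF libraries, and Cox4i1/Cox4i2 and Ampd1/Ampd2 overlap.

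Transcription factors followed no single direction. Of 18 cardiac factors tested (median -0.94), 7 were called higher in hearts (Nkx2-5, Tbx5, Myocd, Irx3, Irx4, Irx5 and Prox1) and 1, Tbx20, was called higher in CFs. Nkx2-5 was at 137 ± 5.96 CPM in hearts and 0.278 ± 0.0422 in CFs. Tbx20 read 1489 ± 46.6 CPM in CFs and 39.3 ± 5.77 in hearts, 37.9-fold, and remained called with TMM and after centring. Gata4 was at 178 ± 3.35 CPM in CFs and 120 ± 14.5 in hearts, a log2 difference of 0.57 that was -0.087 with TMM scaling. Of 26 mesenchymal factors (median 3.09), 13 were called higher in CFs (11 with TMM, 9 after centring) and 1, the epicardial factor Wt1, in hearts. Tcf21, a factor of the cardiac fibroblast lineage, was at 194 ± 15.1 CPM in CFs and 4.46 ± 0.720 in hearts, and Prrx1 was 13.2-fold higher.

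The cells were checked against markers of the types a heart holds. Of 21 cardiac fibroblast markers tested (median 2.06), 8 were called higher in CFs, among them Pdgfra (15.2-fold), Ddr2 (41.3-fold), Vim (21.0-fold) and S100a4 (566-fold), and 3 were called higher in hearts. The summed level of the list was 7513 to 7911 CPM in CFs and 1415 to 2262 CPM in hearts. The 3 higher in hearts were Pi16 (65.4 ± 8.42 CPM against 0.812 ± 0.0653 in CFs), Ackr3 (44.5 ± 2.36 and 2.07 ± 0.113) and Scara5 (19.8 ± 3.32 and 2.34 ± 0.204), and Pi16 and Scara5 are known as markers of a fibroblast state found across unperturbed tissues. Gsn, the actin-severing protein gelsolin, read 416 ± 31.8 CPM in CFs and 1126 ± 248 in hearts and was not called.

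All 11 cardiomyocyte markers were called higher in hearts, with a median of -13.77 when the 5 at the floor in CFs were set at their bounds. Of 20 endothelial markers (median -3.61) 14 were, with Pecam1 at 14.1 ± 0.246 CPM in CFs and 165 ± 22.6 in hearts, Cdh5 at 20.0 ± 0.844 and 173 ± 15.7, and a summed level of 1064 to 1089 CPM in CFs and 2119 to 2498 CPM in hearts. Eng and Cav1, which are not specific to endothelium, made up most of the sum in CFs, and Eng read 596 ± 14.8 CPM there and 256 ± 35.4 in hearts. Of 20 macrophage markers (median -2.68) 9 were called higher in hearts, with a summed level of 76.7 to 83.2 CPM in CFs and 358 to 441 CPM in hearts, and Lyz2 stayed at 40.7 ± 2.47 CPM in CFs. Of 7 erythroid markers 5 were tested and called higher in hearts, with a summed level of 998 to 1312 CPM in hearts and 0.0174 to 1.37 CPM in CFs. Lymphoid markers were low in both materials, at a summed 4.07 to 5.69 CPM in hearts and 0.128 to 0.427 CPM in CFs. Of 10 lymphoid markers 4 passed the filter on low values, each with the CFs at the floor, so that their calls were set by the filter and nothing is read from them. Of 10 epicardial and mesothelial markers (median 2.14) 4 were called higher in CFs, with Aldh1a2 at 106 ± 5.92 CPM and Upk3b at 47.2 ± 1.35, against 1.52 ± 0.305 and 3.00 ± 1.32 in hearts, while Wt1 was higher in hearts. The part of endothelial, macrophage and mesothelial cells in the CF values was not tested.

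Of 6 Schwann and neural markers tested (median -0.0098), Tubb3 and S100b were called higher in CFs and Sox10 in hearts. Of 13 smooth muscle and pericyte markers (median -2.25), 5 were called higher in hearts, with Rgs5 158-fold higher. Of 8 adipocyte markers 3 passed the filter on low values and 2 were called higher in hearts, both with the CFs at the floor. The direction of these 2 calls was set by the filter, and nothing is read from them. The count was 5 without heart b and 5 with KO hearts. The summed level of the adipocyte list was 2.86 to 12.5 CPM in hearts and 0.113 to 1.55 CPM in CFs. Of 8 atrial markers 5 were called higher in hearts, Nppa, Myl4, Myl7, Sln and Mybphl, with a median of -4.76 when the members at the floor were set at their bounds. The summed level of the atrial list ran from 196 to 596 CPM over the hearts, so that the hearts differed in it about 3-fold. Of 20 immediate-early genes (median 1.39) 2 were called higher in CFs, Fosl2 and Egr2, and the count was 1 without CF replicate 2, heart a or heart b. Of 20 genes often used as references (median 1.52) 3 were called higher in CFs (Ppia, Ywhaz and Gusb). No member of either list was called higher in hearts on CPM, while 1 immediate-early gene was with TMM and 1 after centring. Over all protein-coding genes tested, 15.2% were called higher in CFs and 9.13% higher in hearts, so that neither count in CFs sets its list apart. Gapdh read 1475 ± 23.45 CPM in CFs and 800 ± 48.1 in hearts.

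**Figure D5:**
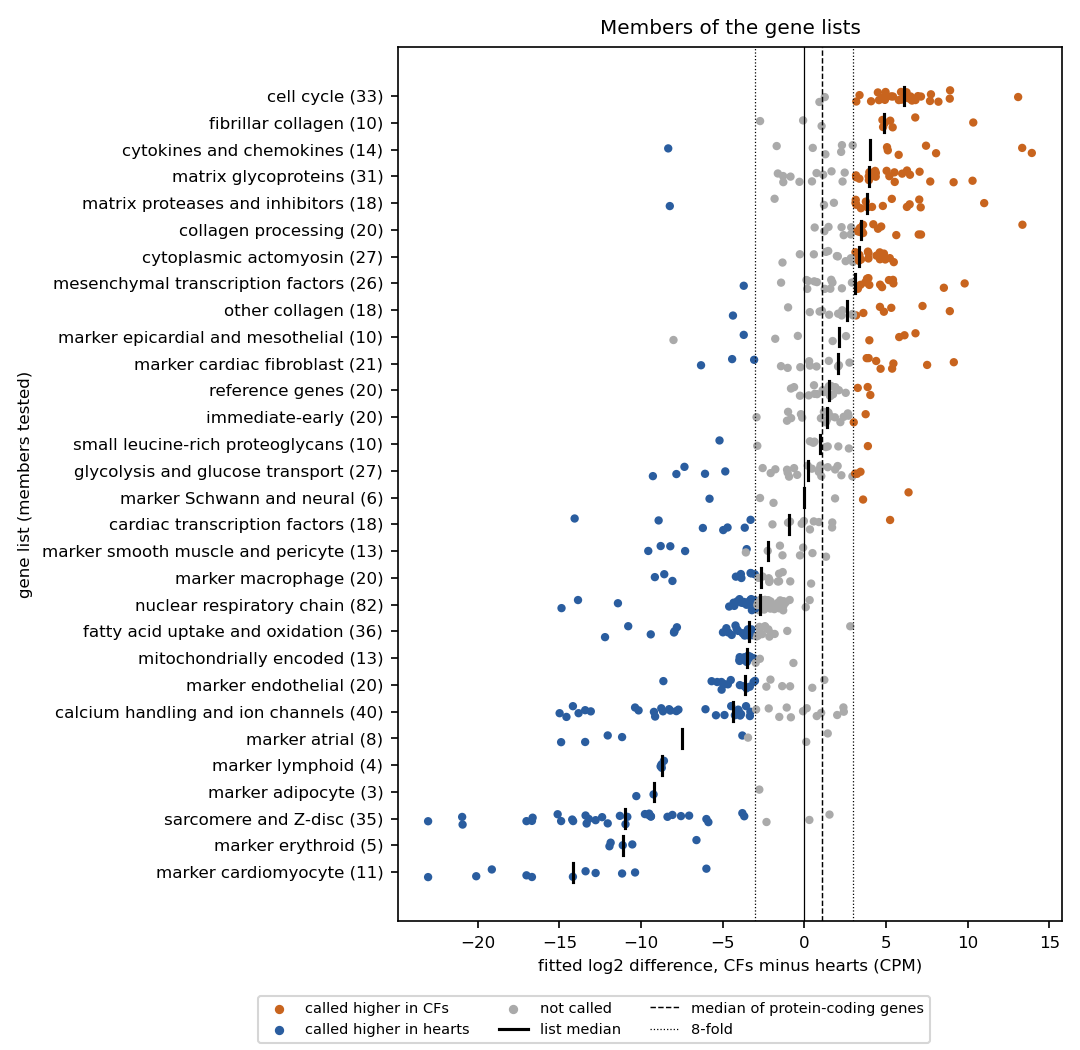
Fitted log2 difference in CPM, CFs minus hearts, of each tested member of 30 gene lists, with list medians (black ticks), the median of protein-coding genes (dashed) and the 8-fold limits (dotted). Cell cycle and fibrillar collagen lists lie to the right and sarcomere, erythroid and cardiomyocyte lists to the left; genes with a group at or under the floor stand at fitted values that are no bounds.

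Promoters of the 2 contractile groups, sarcomeric and cytoplasmic, were compared because their called genes lay on opposite sides of the comparison. Of the 27 actomyosin genes, 10 were not called. The RefSeq promoter table (GRCm38.p6, 250 bases before to 50 after a start) held 29 of the 35 sarcomere genes and 23 of the 27 actomyosin genes. Of 12 motifs searched on both strands, those described here were chosen after their shares were seen. The CArG box, the binding motif of serum response factor, was present at a start of 24.1% of the sarcomere genes and 21.7% of the actomyosin genes, and of 1.81% of all 27025 symbols in the table. Among the actomyosin genes with a box, Myl6 and Myl9 were not called. The letters CATTCC, the core recognised by TEAD factors, were present in 41.4%, 39.1% and 16.6%. The letters GGGCGG set the 2 groups apart, with 24.1% of the sarcomere genes, 82.6% of the actomyosin genes and 38.2% of all symbols. The MEF2 motif was present in 17.2% of the sarcomere genes, in none of the 23 actomyosin genes and in 3.7% of all symbols. In cell cycle genes the letters CCAAT were present in 77.8% of 27, against 41.1% of all symbols. These are matches in a window of letters, and nothing was measured at the sites. The 150 bases before the start of 3 genes called higher in hearts (Actc1, Myl3 and Acta1) and 2 called higher in CFs (Actg1 and Cnn2) are shown because the same motif stands in both groups, with the CArG box in capitals:
Actc1, chr2:114052876-114053025, minus strand: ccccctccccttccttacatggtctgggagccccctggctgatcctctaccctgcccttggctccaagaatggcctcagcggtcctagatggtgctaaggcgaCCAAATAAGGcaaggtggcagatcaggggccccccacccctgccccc
Myl3, chr9:110763528-110763677, plus strand: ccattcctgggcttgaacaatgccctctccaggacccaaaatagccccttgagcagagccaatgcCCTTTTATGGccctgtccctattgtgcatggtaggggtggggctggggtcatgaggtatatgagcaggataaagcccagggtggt
Acta1, chr8:123894776-123894925, minus strand: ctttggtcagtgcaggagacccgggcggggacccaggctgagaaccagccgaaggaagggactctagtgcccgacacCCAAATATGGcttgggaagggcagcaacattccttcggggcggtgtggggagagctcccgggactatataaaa
Actg1, chr11:120348496-120348645, minus strand: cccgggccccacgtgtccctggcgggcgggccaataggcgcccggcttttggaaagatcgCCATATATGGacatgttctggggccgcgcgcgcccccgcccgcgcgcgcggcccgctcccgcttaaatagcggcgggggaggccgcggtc
Cnn2, chr10:79988450-79988599, plus strand: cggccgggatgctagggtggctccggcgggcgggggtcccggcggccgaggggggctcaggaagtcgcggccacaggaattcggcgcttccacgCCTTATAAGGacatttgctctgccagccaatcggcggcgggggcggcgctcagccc
Counted from its first base, the box began 47 bases before the start in Actc1, 85 in Myl3, 73 in Acta1, 90 in Actg1 and 56 in Cnn2. Acta1, skeletal α-actin, was at 615 ± 117 CPM in hearts and 0.706 ± 0.0526 in CFs, and Cnn2, a calponin, at 425 ± 16.3 CPM in CFs and 38.6 ± 4.36 in hearts. Srf itself read 104 ± 1.09 CPM in CFs and 116 ± 10.8 in hearts and was not called.

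Values of the same genes in stimulated Scrambled CFs and in KO hearts are given side by side, since all such comparisons share libraries with the one above and each stimulus stands in a table of its own. Col1a1 was at 3893 ± 63.4 CPM in untreated CFs, 3694 ± 60.7 with IL-17 and 7131 ± 167 with TGF-β. Acta2 was at 1089 ± 19.3, 933 ± 14.4 and 3179 ± 87.7 CPM. Thbs1 was at 9211 ± 485, 9829 ± 92.1 and 2283 ± 182 CPM. Mki67 was at 286 ± 14.9, 274 ± 13.5 and 26.1 ± 3.31 CPM, which is above the 2.32 ± 0.906 of hearts in each case.

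Tnnt2 was at 97.2 ± 4.39, 74.6 ± 3.71 and 4.93 ± 0.237 CPM, and Tbx20 at 1489 ± 46.6, 1126 ± 6.64 and 296 ± 14.96 CPM (SD, n = 3 each). Dcn was at 596 ± 48.0, 782 ± 9.21 and 2312 ± 49.7 CPM, so that the CF level lay near that of hearts in the untreated cells and above it in the TGF-β cells. Il6 was at 20.2 ± 0.642, 272 ± 16.9 and 85.1 ± 4.24 CPM. KO hearts read 122.6 ± 10.9 CPM of Col1a1, 16.1 ± 4.94 of Thbs1, 6178 ± 261 of Tnnt2 and 15.96 ± 0.981 of the IAMP transcript (SD, n = 4). No differences between these groups were tested here.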

How the data were processed

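RNA-Seq libraries of poly(A) RNA were compared for 3 untreated Scrambled CF samples and 4 IAMP heterozygous hearts. According to the methods, the authors trimmed reads with Cutadapt, aligned them to GRCm38 with HISAT2 and quantified them with StringTie. The deposited CF values are whole numbers that were read as estimated counts, of up to about 6 per read pair, and the deposited heart values as raw counts. The annotation release, strand setting and step to whole numbers are not given in the sources used here. Heart columns carry mouse numbers and no replicate number, and are called a to d.

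The tables were joined on 55487 gene identifiers, of which 55227 are in GENCODE vM21 (GRCm38), the source of exonic lengths, biotypes and positions. Library sizes were the totals (CPM). filterByExpr and the robust quasi-likelihood test of edgeR 4.0.16 in R 4.3.3 were run on the 7 libraries, with Benjamini-Hochberg adjustment over 17852 genes. Standard errors are the log2 difference divided by the square root of F. Folds of group means against a group at or under 18 estimated counts (CFs) or 3 counts (hearts) in every library are lower bounds, which cover counting error only. The fit was tested on simulated data. DESeq2 1.42.0, TMM and RLE scaling, other filters, fold limits, KO hearts and omitted libraries were alternatives, and protein-coding totals and centring on the running median of 250 genes of like length on each side were added after seeing the data.

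Members, 31 gene lists and 28 pairs were chosen with earlier results of these data known. Named genes are 4930523C07Rik, the 10 called genes with the largest difference in each direction among those with at least 100 CPM, the 10 most abundant of each material, up to 6 of the most abundant members of each list plus members called against its majority, and the pairs. Other genes named were chosen after their values were seen. A gene that this rule names is not reported here.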

Additional observations from a re-analysis of the deposited data

Results flagged for a closer look

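Of 80 values tested for 1 heart that stood apart from the other 3, 6 were marked, where chance marks about 1 in 20. Col11a1 read 0.126 CPM in 1 heart and 0.210 to 0.212 in the others, and Gpr39 read 0.378 CPM in 1 heart and 0 in the others, both at a few counts. The summed level of the cardiac transcription factors was 1386 CPM in 1 heart and 1227 to 1246 in the others. The share of Myh6 beside Myh9 was 99.7% in 1 heart (99.65%, against 99.74% to 99.76%). The share of Flnc beside Flna was 83.1% in 1 heart and 75.5% to 76.0% in the others. The share of Atp2a2 beside Atp2b1 was 99.86% in 1 heart and 99.85% in the others. Each of these values stayed on its side of every CF library.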

How the results depend on the processing

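No paired analysis was possible because the heart columns carry no replicate number. Apart from replicate numbers in the sample titles, no label links a CF library to a heart, so that no paired design is known. The number of genes higher in CFs, 2380, was 1537 with TMM factors, 1409 with RLE size factors, 3575 with no filter, 4642 at 4-fold, 1269 at 16-fold, 1346 with protein-coding genes and their own totals and 1112 after centring on length. The number higher in hearts, 3406, was 1730 among genes of at least 1000 exonic bases, 1674 with protein-coding genes and their own totals and 1839 after centring. The number of list members called, 335, was 221 at 16-fold. Without 1 library at a time these 3 counts ran from 2417 to 2934, from 3519 to 4071 and from 333 to 346, the IAMP difference from 0.44 to 0.56, and the pairs with a higher share in every heart stayed at 26. The IAMP difference of 0.51 was -0.15 with TMM, -0.32 with RLE, -0.15 with protein-coding totals and -1.09 after centring. In the same order, Dcn was -0.042, -0.21, -0.041 and -0.58 and Gata4 -0.087, -0.26, -0.086 and -0.39. Cox6a1 was -0.58, -0.76 and -0.58 under the first 3 and -0.31 with totals without mitochondrially encoded genes. After centring, Cdkn1a was -0.020 and Gapdh -0.33. Of 344 called genes followed, 0 changed sign under any of these settings. They were chosen at 8-fold or more, which largely fixed this in advance, so that nothing is read from it. Among the 361 genes followed, 31 lost their call with TMM and 61 after centring. DESeq2 and division of the CF values by 6 left all 361 genes followed on their side of the rule, and KO hearts in place of Het hearts left 354. Among genes named above, Scara5, Fosl2 and Slc16a3 fell below 8-fold without 1 library (-2.98, 2.96 to 2.97 and 2.98). The cause was not tested. No setting removes a difference in quantification between the CF and heart tables.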

Other observations

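The genes for cytoplasmic ribosomal proteins, taken as a group after the other results were seen, had a median log2 difference of 1.76 on CPM, beside 1.09 for all protein-coding genes, and of 1.24 after centring on genes of like length. Of 76 tested, 2 were called higher in CFs and 0 in hearts, where 15.2% and 9.13% of all protein-coding genes were called. Of 2247 processed pseudogenes tested, 1748 were called higher in hearts, with a median log2 difference of -5.69. Whether reads of ribosomal protein genes were counted in pseudogene rows was not tested, so that the group's median is uncertain. Among 1428 genes that are neither protein-coding nor pseudogenes, 238 were called higher in CFs and 283 higher in hearts, with a median log2 difference of 0.17. Among 2497 pseudogenes, 31 were called higher in CFs and 1851 higher in hearts.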
